A study of Mus musculus with 24 samples.

Results

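The 9 genes described here code for the LIF receptor, its signalling chain up to Stat3, and genes that Stat3 is known to switch on: Lifr, Il6st, Jak1, Stat3, Socs3, Socs2, Pim1, Pim3 and Gbx2. They were picked by gene symbol, and each matched 1 line of both deposited count tables, which list 35022 genes for PD03 removal and 48709 genes for CHIRON removal. E14 mouse embryonic stem cells (mESCs, a cell line that is kept undifferentiated in culture) were held for 12 h in 2i+LIF on soft or stiff fibronectin-coated StemBond hydrogels. 2i is the pair of inhibitors PD03 (1 µM, against MEK) and CHIRON (3 µM, against GSK3), and LIF is leukaemia inhibitory factor. PD03 was then taken out, which left the cells in CHIRON+LIF, or CHIRON was taken out, which left them in PD03+LIF. RNA was collected at 0 h, still in 2i+LIF, and 2 h and 12 h after removal, so each experiment has 6 groups of 2 libraries. LIF was present in every group, and no group without LIF or on plastic enters the comparisons. The labels do not say that the libraries of a group came from separate cultures, so p-values measure only the spread between these libraries.

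LIF binds Lifr, which pairs with gp130, the product of Il6st and the shared signalling chain of this cytokine family. The receptor carries JAK kinases such as Jak1, which phosphorylate Stat3, and phosphorylated Stat3 enters the nucleus and binds DNA. In mESCs this route supports self-renewal, beside inhibition of MEK and of GSK3. Socs3 and Socs2 code for suppressors of cytokine signalling that damp the receptor, Pim1 and Pim3 for serine/threonine kinases that favour survival, and Gbx2 for a homeobox transcription factor. RNA levels of these genes do not measure the phosphorylation of Stat3.

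Of 24 libraries, 23 were used. The library left out, the first of stiff at 2 h after CHIRON removal, held 171333 counts, so this group has 1 library and was assumed to vary like the other groups. The others held 16222196 to 26442153 counts for PD03 removal and 19393787 to 31111260 for CHIRON removal. The spread between libraries of a group was larger in the CHIRON removal experiment, with a biological coefficient of variation of 0.0797 against 0.0386. The 5 mESC markers (Pou5f1, Nanog, Sox2, Esrrb and Zfp42) summed to between 3300 and 4490 CPM (counts-per-million units) in every library. Of these 5, 3 were lower on both substrates 12 h after PD03 removal, where 15.3% of all genes were lower on soft and 19.9% on stiff. At 12 h after CHIRON removal 2 were higher and 1 lower on soft, beside 9.18% and 8.63% of all genes. On stiff 4 were higher and 1 lower, beside 8.46% and 8.33% of all genes. The part of these markers in the results was not tested. The summed level of 5 markers was 8.61 to 27.1 CPM for fibroblasts, 2.28 to 8.09 CPM for primitive endoderm and 50.1 to 81.4 CPM for trophoblast. Single genes made up much of 2 sums. Tfap2c alone reached 47.7 CPM (PD03 removal) and 61.5 CPM (CHIRON removal) among the trophoblast markers. Pdgfrb reached 10.1 and 21.4 CPM among those of fibroblasts. In bulk RNA, fewer cells that express a gene and less RNA per cell cannot be told apart. The experiments stood apart at 0 h, although the labels give the same medium. Lifr on soft had a mean of 243 CPM at 0 h of PD03 removal and 118 CPM at 0 h of CHIRON removal, and Socs3 had 141 and 72.4 CPM, while Gbx2 had 67.7 and 64 CPM. Of genes that are not among the 9, Klf4 and Klf5, naive pluripotency factors chosen here after their values were seen, had 145 and 93.8 CPM in the former and 536 and 1240 CPM in the latter. Experiment and any batch cannot be told apart, so levels are compared only within an experiment.

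Stat3 dimers bind the palindrome TTCNNNGAA, and the promoters of the genes were searched for it. RefSeq windows (GRCm38.p6) of 250 bases before and 50 bases after a start were at hand for 8 of the 9 genes, in 10 windows. The motif is its own reverse complement, so 1 search covers both strands. It was present in 1 of the 10 windows, that of Socs3, and in 8.3% of all 32851 windows of the same length. A match is a description of letters, and no match says only that these letters are not in this window. The upstream bases of Socs3, with the match in capitals, are shown beside those of Stat3 and of Gbx2, the gene with the largest changes, which hold no match. All 3 lie on the minus strand and are written 5′ to 3′.
Socs3, chr11:117969367-117969616: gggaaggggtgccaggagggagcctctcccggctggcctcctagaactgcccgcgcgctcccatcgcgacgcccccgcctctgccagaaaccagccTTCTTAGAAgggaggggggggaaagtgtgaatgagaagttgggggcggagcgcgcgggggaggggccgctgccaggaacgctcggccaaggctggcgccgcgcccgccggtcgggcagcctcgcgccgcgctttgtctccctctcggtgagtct
Stat3, chr11:100939541-100939790: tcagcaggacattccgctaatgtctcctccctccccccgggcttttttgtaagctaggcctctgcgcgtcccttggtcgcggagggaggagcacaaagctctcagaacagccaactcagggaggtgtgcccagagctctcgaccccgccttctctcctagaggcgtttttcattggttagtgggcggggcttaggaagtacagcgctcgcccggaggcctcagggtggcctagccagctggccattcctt
Gbx2, chr1:89931177-89931426: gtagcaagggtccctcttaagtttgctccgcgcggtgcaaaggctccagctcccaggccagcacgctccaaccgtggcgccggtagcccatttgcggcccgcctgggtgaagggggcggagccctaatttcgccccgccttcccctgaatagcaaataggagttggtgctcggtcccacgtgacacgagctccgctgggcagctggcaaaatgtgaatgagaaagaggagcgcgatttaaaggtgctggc
The Socs3 match, TTCTTAGAA at chr11:117969512-117969520, begins 154 bases before the RefSeq start. Its last base lies 326 bases before the start of the 1 coding Socs3 transcript in GENCODE M21. The match is in no annotated exon of Socs3 but within the annotated span of the gene (chr11:117966079-117970047).

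All 9 genes passed the filter on low counts in both experiments, and each was read at between 9.97 and 289 CPM in every library. Per kilobase of exon, the median level over the 12 libraries of PD03 removal was highest for Socs3 (54 CPM per kb) and Pim3 (52), followed by Pim1 (39.4), Gbx2 (31), Lifr (24.8), Il6st (23) and Stat3 (20.8). Jak1 (9.17 CPM per kb) and Socs2 (6.24) were lowest. Over the 11 libraries of CHIRON removal, Pim1 was highest at 46.8 CPM per kb and Socs2 again lowest at 4.31. Most of the genes varied little. The highest library was 1.13 times the lowest for Stat3 and 1.47 times for Pim3 after PD03 removal, and 1.36 times for Jak1 to 1.48 times for Lifr after CHIRON removal. Gbx2 was the exception, with 2.19 times after PD03 removal and 6.66 times after CHIRON removal.

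**Figure D1:**
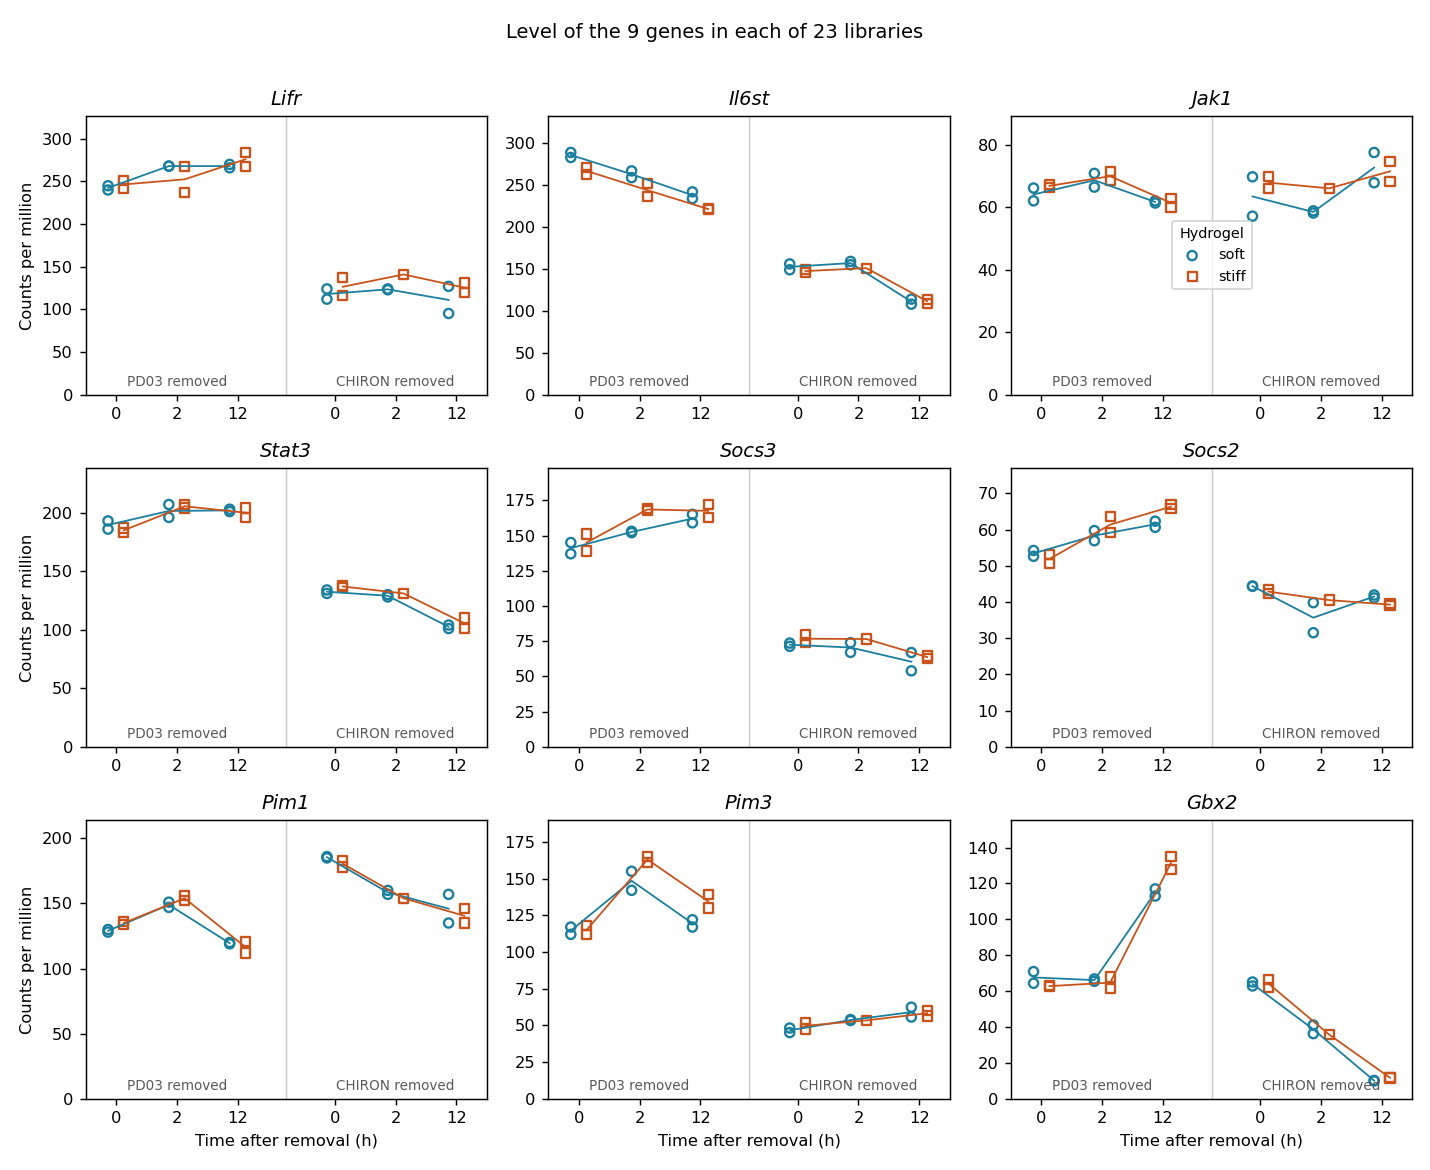
CPM of the 9 genes in each of 23 libraries, plotted against time after removal (0, 2 and 12 h, evenly spaced), with PD03 removal left and CHIRON removal right in each panel; circles are soft, squares are stiff, and lines join group means. Gbx2 reached 113 to 135 CPM 12 h after PD03 removal and 9.97 to 11.9 CPM 12 h after CHIRON removal.

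The first question was how the genes responded when MEK inhibition was lifted while LIF and CHIRON stayed. At 2 h after PD03 removal, the kinases Pim1 and Pim3 rose on both substrates, and the suppressors Socs3 and Socs2 rose on stiff. Pim3 was at 117 and 112 CPM at 0 h and at 142 and 155 CPM at 2 h on soft, and at 118 and 112 CPM against 161 and 165 CPM on stiff. Every 2 h library of Pim3 lay above every 0 h library of its substrate. The change was a log2 fold change of 0.37 (SE 0.0555) on soft, adjusted p = 7.52e-05 by the quasi-likelihood test of edgeR after Benjamini-Hochberg adjustment, and 0.50 (SE 0.0545) on stiff, adjusted p = 1.69e-07. Pim1 went from 130 and 128 CPM to 151 and 147 CPM on soft and from 134 and 136 CPM to 152 and 156 CPM on stiff, again without overlap. Its log2 fold changes were 0.21 (SE 0.0506, adjusted p = 0.0186) and 0.19 (SE 0.0497, adjusted p = 0.0301) by the same edgeR test. Here and below, a lack of overlap only describes the few libraries compared. It also occurred where nothing passed, as for Socs2 between substrates at each time of CHIRON removal. The share of all genes without overlap was not counted.

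Socs3 on stiff was at 139 and 151 CPM at 0 h and at 168 and 169 CPM at 2 h, a log2 fold change of 0.22 (SE 0.0515, edgeR adjusted p = 0.0132). On soft it was at 137 and 145 CPM and then at 152 and 153 CPM, which did not pass (0.11, SE 0.0526, edgeR adjusted p = 0.405). The groups did not overlap on either substrate. Socs2 on stiff went from 53 and 50.7 CPM to 63.5 and 59.2 CPM (0.25, SE 0.0653, edgeR adjusted p = 0.0322), and on soft the log2 fold change was 0.12 (SE 0.0666, edgeR adjusted p = 0.494). That makes 2 of 9 genes higher on soft and 4 of 9 on stiff, beside 1.31% and 1.84% of all 13405 genes tested. None of the 9 was lower, beside 0.649% and 0.895% of all genes. Lifr, Il6st, Jak1, Stat3 and Gbx2 passed on neither substrate. Gbx2 changed little (log2 fold change -0.03 on soft, 0.04 on stiff), with groups that overlapped. The Pim1 call was lost on either substrate when any 1 of the 4 libraries compared was left out, with adjusted p-values of up to 0.204 on soft and 0.191 on stiff. On stiff the Socs3 call was lost without 0 h replicate 1 or either 2 h library (adjusted p up to 0.294), and the Socs2 call without either 0 h library or 2 h replicate 1 (up to 0.301). On stiff Pim1 and Socs2 were also not called by DESeq2 (adjusted p = 0.0652 and 0.0965), nor by edgeR with non-coding genes kept (0.0628 and 0.0588) or with only the groups compared in the fit (0.0815 and 0.114), and Socs3 was not called in the last of these (0.0578).

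At 12 h after PD03 removal, Gbx2 and the suppressors Socs3 and Socs2 were higher, Lifr was higher and Il6st lower on both substrates. Gbx2 stood at 70.9 and 64.4 CPM at 0 h and at 113 and 117 CPM at 12 h on soft, and at 62.6 and 63 CPM against 135 and 128 CPM on stiff. The lowest 12 h library was far above the highest 0 h library on both substrates. Its log2 fold changes were 0.77 (SE 0.0605, adjusted p = 9.06e-11) on soft and 1.07 (SE 0.0607, adjusted p = 3.76e-14) on stiff by the quasi-likelihood test of edgeR after Benjamini-Hochberg adjustment. Gbx2 overlaps D130058E05Rik on the opposite strand, and no source used here states whether the counting used strand.

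The receptor subunits moved in opposite directions. Il6st was at 289 and 283 CPM at 0 h and at 234 and 242 CPM at 12 h on soft, and at 271 and 263 CPM against 221 and 222 CPM on stiff. Both falls were free of overlap, at a log2 fold change of -0.27 on soft (SE 0.0466, edgeR adjusted p = 6.93e-05) and -0.27 on stiff (SE 0.0472, edgeR adjusted p = 3.9e-05). Lifr was at 240 and 245 CPM at 0 h and at 266 and 270 CPM at 12 h on soft, and at 242 and 251 CPM against 268 and 284 CPM on stiff. Its groups did not overlap, but the changes were small, at 0.14 on soft (SE 0.051, edgeR adjusted p = 0.0335) and 0.16 on stiff (SE 0.0511, edgeR adjusted p = 0.0134). The call for Lifr was lost without any 1 of the 4 libraries compared on soft, and without stiff 0 h replicate 1 or stiff 12 h replicate 2 on stiff, with adjusted p-values of up to 0.159 and 0.158.

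Downstream of the receptor, Jak1 and Stat3 did not pass at 12 h. Stat3 was at 186 and 193 CPM at 0 h and at 201 and 203 CPM at 12 h on soft, and at 187 and 183 CPM against 204 and 196 CPM on stiff. The 12 h libraries lay above the 0 h libraries, with log2 fold changes of 0.09 (SE 0.0474, edgeR adjusted p = 0.158) and 0.11 (SE 0.0478, edgeR adjusted p = 0.0669). Socs3 rose to 159 and 165 CPM on soft (0.20, SE 0.0519, edgeR adjusted p = 0.00416) and to 172 and 163 CPM on stiff (0.21, SE 0.052, edgeR adjusted p = 0.00177). Socs2 rose by 0.20 on soft (SE 0.0653, edgeR adjusted p = 0.0204) and by 0.36 on stiff (SE 0.0656, edgeR adjusted p = 7.74e-05) on the log2 scale. The kinases Pim1 and Pim3, higher at 2 h, differed from each other at 12 h. Pim1 fell to 121 and 112 CPM on stiff (-0.21, SE 0.0514, edgeR adjusted p = 0.0015), whereas Pim3 stood at 139 and 130 CPM there (0.23, SE 0.0557, edgeR adjusted p = 0.00179). On soft neither passed, with log2 fold changes of -0.11 for Pim1 and 0.06 for Pim3. Calls that 1 library decided were Socs2 on soft (any of the 4 compared, adjusted p up to 0.12, and 0.0501 by DESeq2), Socs3 on soft (0 h replicate 1 or 12 h replicate 2, up to 0.0798) and on stiff (0 h replicate 1, 0.0554), Pim1 on stiff (12 h replicate 2, 0.0609) and Pim3 on stiff (12 h replicate 1, 0.0594).

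In all, 4 of the 9 genes were higher and 1 was lower on soft, and 5 were higher and 2 lower on stiff. Over all genes tested, 14.1% were higher and 15.3% lower on soft, and 18.5% were higher and 19.9% lower on stiff, so the share of the 9 that passed is to be read against a broad change. The median log2 fold change of the 9 was 0.09 on soft and 0.16 on stiff, against -0.001 and -0.002 over all genes.

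**Figure D2:**
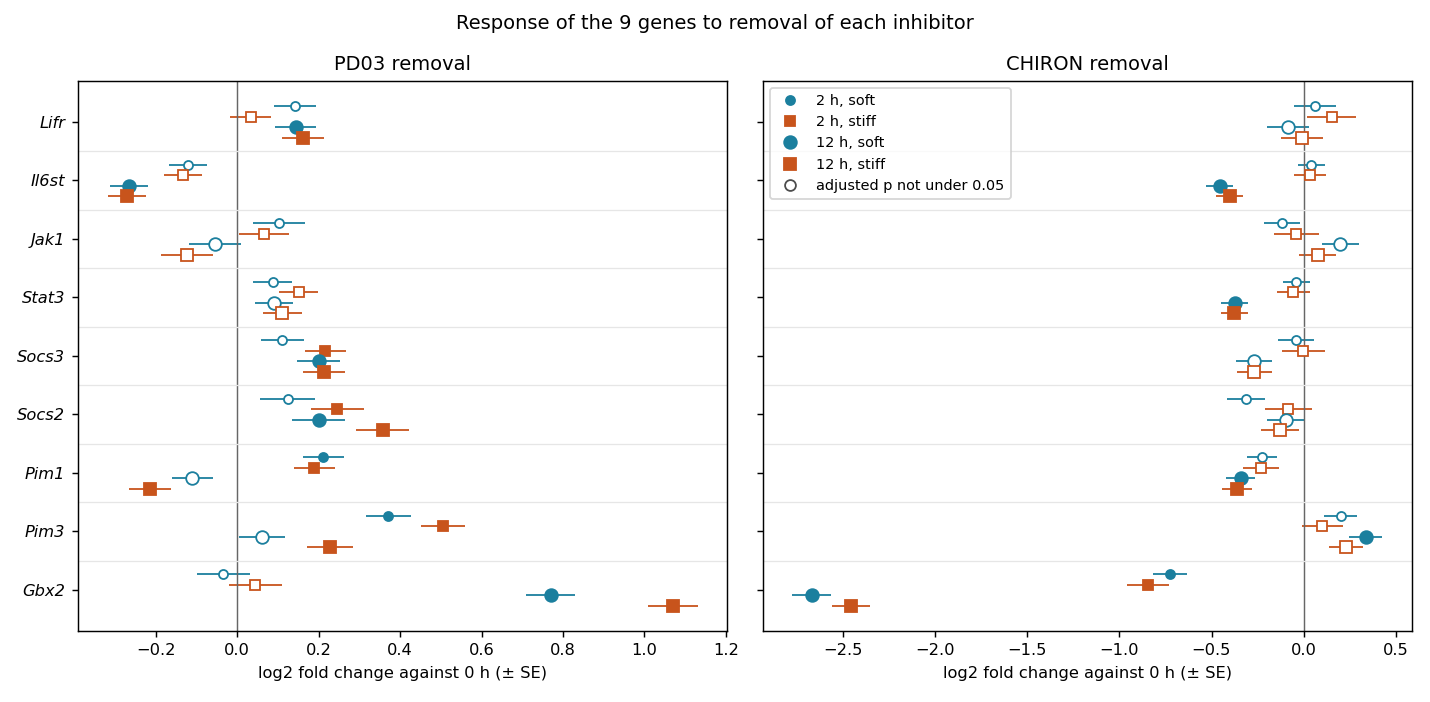
Log2 fold change (± SE) of the 9 genes at 2 h and 12 h against 0 h, with PD03 removal left and CHIRON removal right on separate scales; circles are soft, squares are stiff, small symbols are 2 h and large symbols 12 h. Filled symbols passed adjusted p 0.05 by edgeR's quasi-likelihood test. Gbx2 lies furthest from 0 in both panels, at 1.07 on stiff 12 h after PD03 removal and at -2.67 on soft 12 h after CHIRON removal.

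The second question was how the genes responded when CHIRON was lifted while LIF and PD03 stayed. Gbx2 fell early and strongly. It was at 65.1 and 62.9 CPM at 0 h, at 41.1 and 36.3 CPM at 2 h and at 9.97 and 10.2 CPM at 12 h on soft. On stiff it was at 62.2 and 66.4 CPM, then at 35.8 CPM in the 1 library of 2 h, then at 11.9 and 11.6 CPM. No time point overlapped another. At 2 h the log2 fold change was -0.73 on soft (SE 0.0926, edgeR adjusted p = 0.000819) and -0.84 on stiff (SE 0.116, edgeR adjusted p = 0.00423). At 12 h it was -2.67 on soft (SE 0.104, edgeR adjusted p = 1.04e-11) and -2.45 on stiff (SE 0.103, edgeR adjusted p = 2.95e-11). The 2 h call on soft was lost without soft 2 h replicate 2 (-0.64, edgeR adjusted p = 0.0513), and that on stiff when only the groups compared were fitted (edgeR adjusted p = 0.927). Of the 9, Gbx2 alone passed at 2 h, and 0 were higher, where 0.0684% of 14615 genes were lower and 0.157% higher on soft and 0.0479% lower and 0.0547% higher on stiff. The next in size, Socs2 on soft, was at 44.4 and 44.3 CPM at 0 h and at 31.5 and 39.8 CPM at 2 h, which did not pass (-0.31, SE 0.103, edgeR adjusted p = 0.328).

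By 12 h after CHIRON removal, gp130, Stat3 and Pim1 messages were lower as well. Stat3 went from 131 and 134 CPM to 101 and 104 CPM on soft and from 136 and 138 CPM to 110 and 101 CPM on stiff. The groups stood well apart, with log2 fold changes of -0.37 (SE 0.0735, edgeR adjusted p = 0.00151) and -0.38 (SE 0.0737, edgeR adjusted p = 0.0015). Stat3 overlaps Stat5a on the opposite strand. Il6st went from 149 and 156 CPM to 114 and 108 CPM on soft (-0.46, SE 0.0722, edgeR adjusted p = 0.000212) and from 146 and 149 CPM to 114 and 109 CPM on stiff (-0.40, SE 0.0725, edgeR adjusted p = 0.000699). Pim1 went from 185 and 186 CPM to 135 and 157 CPM on soft (-0.34, SE 0.0803, edgeR adjusted p = 0.00606) and from 183 and 178 CPM to 135 and 146 CPM on stiff (-0.36, SE 0.0806, edgeR adjusted p = 0.00424). The 12 h libraries of Pim1 lay further apart than those of Il6st, and its call was lost without either 0 h library or 12 h replicate 1 on soft and without 12 h replicate 1 on stiff. With any 1 library left out the log2 fold change of Pim1 stayed between -0.45 and -0.24 on soft and between -0.42 and -0.30 on stiff.

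Socs3 was lower in every 12 h library than in every 0 h library, at 53.9 and 66.9 CPM against 71.3 and 73.6 CPM on soft and at 64.5 and 62.9 CPM against 79.4 and 74 CPM on stiff. It did not pass on either substrate (-0.27, SE 0.0969, edgeR adjusted p = 0.0651, and -0.27, SE 0.0971, edgeR adjusted p = 0.0696). Without soft 12 h replicate 2, which at 66.9 CPM was the higher of its group, Socs3 passed on soft with edgeR adjusted p = 0.0103, and without either soft 12 h library it passed on stiff. Of the 9, Pim3 alone rose, from 48.2 and 45.1 CPM to 55.7 and 62.4 CPM on soft (0.34, SE 0.0908, edgeR adjusted p = 0.0154). That call was lost without soft 0 h replicate 2 or soft 12 h replicate 2, where it was 0.29 and 0.26 with edgeR adjusted p-values of 0.141 and 0.142. On stiff Pim3 did not pass (0.23, SE 0.0913, edgeR adjusted p = 0.0998). Lifr, Jak1 and Socs2 passed on neither substrate, and the Lifr groups overlapped on both. The result was 1 gene higher and 4 lower on soft and 4 lower on stiff, where 9.18% of all genes were higher and 8.63% lower on soft, and 8.46% higher and 8.33% lower on stiff. The median log2 fold change of the 9 was -0.27 on both substrates, against -0.01 over all genes.

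The study set soft against stiff to ask what substrate stiffness does to mESCs, and at single times none of the 9 genes passed. In 27 comparisons of 1 gene at 1 time, 0 passed in the PD03 removal experiment by the quasi-likelihood test of edgeR after Benjamini-Hochberg adjustment, beside 0.0298% of all genes at 0 h, 0.134% at 2 h and 0.776% at 12 h. The differences ran from -0.19 (Gbx2 at 12 h) to 0.11 (Il6st at 2 h) on the log2 scale, soft minus stiff. In the CHIRON removal experiment 0 of 27 passed, beside 0% of all genes at each time, with differences from -0.22 to 0.11. The unadjusted p was under 0.05 for Il6st at all 3 times, and for Socs3 and Pim3 at 2 h and Pim3 and Gbx2 at 12 h, all after PD03 removal, and for none of the 9 in the CHIRON removal experiment. The share of all genes with an unadjusted p under 0.05 was not counted, so these p-values cannot show whether the 9 differ from other genes. DESeq2 likewise called none of the 27 comparisons in either experiment.

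Averaged over the 3 times, Il6st alone passed, in the PD03 removal experiment, where it was higher on soft by 0.10 on the log2 scale (SE 0.0271, edgeR adjusted p = 0.0378). Over all genes, 1.89% passed there. Every soft library of Il6st lay above every stiff library of its time, at 289 and 283 against 271 and 263 CPM at 0 h, 267 and 259 against 236 and 252 CPM at 2 h, and 234 and 242 against 221 and 222 CPM at 12 h. The call was lost in turn without 10 of the 12 libraries (all but soft 12 h replicate 1 and stiff 2 h replicate 2), with adjusted p-values of up to 0.128, and with non-coding genes kept (0.0664). In the CHIRON removal experiment the same difference for Il6st was 0.03 (SE 0.0449, edgeR adjusted p = 0.896), with overlap at 0 h and 12 h. Pim3 did not pass after PD03 removal (-0.10, SE 0.032, edgeR adjusted p = 0.0968), although its groups did not overlap at 2 h and 12 h. For Il6st and Pim3 alike, the share of all genes without such overlap was not counted.

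The response to removal was then compared between substrates, as the difference of the changes from 0 h. None of the 9 genes passed at 2 h or 12 h in either experiment by edgeR's quasi-likelihood test, while over all genes 0.00746% passed at 2 h after PD03 removal and 0% in the other 3 comparisons. After PD03 removal these differences ran from -0.30 to 0.11, and after CHIRON removal from -0.23 to 0.12. The lowest was that of Gbx2 at 12 h after PD03 removal, which rose less on soft than on stiff by 0.30 on the log2 scale (-0.30, SE 0.0858, unadjusted p = 0.00155, edgeR adjusted p = 0.487). The SE of these differences was 0.066 to 0.0932 after PD03 removal and 0.102 to 0.176 after CHIRON removal. The Gbx2 difference was several times its SE and still did not pass, so differences of that size can be missed here. DESeq2 called none of these response differences. The only unadjusted p-values under 0.05 were those of Gbx2 and Pim3 at 12 h after PD03 removal, and the share of all genes under it was not counted.

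**Figure D3:**
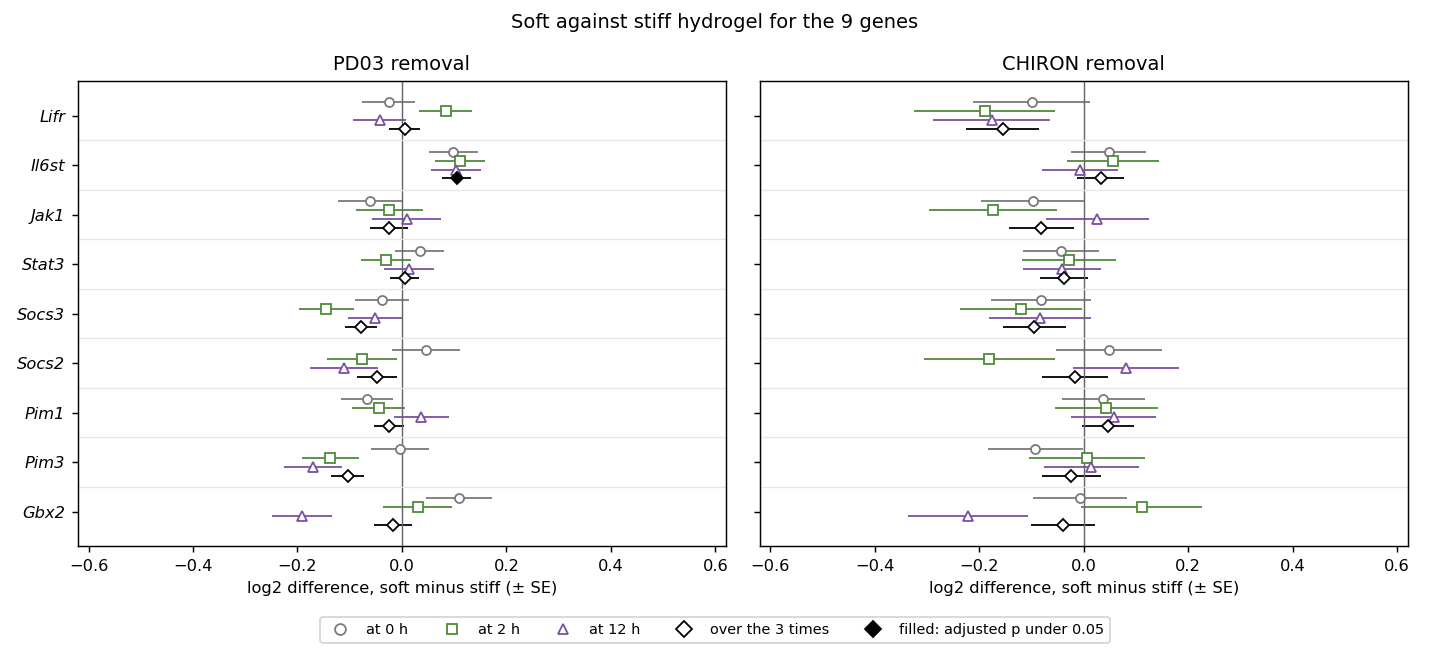
Log2 difference (± SE) between soft and stiff for the 9 genes at 0 h, 2 h and 12 h and over the 3 times, with PD03 removal left and CHIRON removal right; values above 0 are higher on soft. Il6st over the 3 times after PD03 removal, at 0.10, is the 1 filled symbol, which marks adjusted p under 0.05.

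The responses to the removals were compared in 1 fit of all 23 libraries, as the change from 0 h after PD03 removal minus that after CHIRON removal, averaged over substrates. The experiments stood apart at 0 h. A difference due to the inhibitor removed therefore cannot be told apart from one due to the experiment or its starting level. At 2 h, 4 of the 9 genes were higher after PD03 removal and 0 were lower, beside 1.66% and 1.84% of 14742 genes. They were Gbx2 with a difference of 0.79 (SE 0.0795, edgeR adjusted p = 1.57e-07), Pim1 with 0.43 (SE 0.0703, edgeR adjusted p = 0.00034), Socs2 with 0.38 (SE 0.0858, edgeR adjusted p = 0.00947) and Pim3 with 0.29 (SE 0.0767, edgeR adjusted p = 0.0328). For Gbx2 the difference came with a fall after CHIRON removal and no called change after PD03 removal, while for Pim3 it came with a rise after PD03 removal. The Pim3 call was lost in turn without 6 libraries, which were replicate 2 of soft 0 h, soft 2 h and stiff 0 h and both of stiff 2 h (PD03 removal) and soft 0 h replicate 1 (CHIRON removal), with edgeR adjusted p-values of 0.0513 to 0.0919, and with non-coding genes kept (0.0514).

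At 12 h, 6 of the 9 genes were higher after PD03 removal and 1 was lower, beside 18.6% and 17.5% of all genes. Gbx2 differed by 3.48 (SE 0.0798, edgeR adjusted p = 2.15e-22), having risen after the former removal and fallen after the latter. Stat3 and Socs3 each differed by 0.47, with SE 0.0593 and edgeR adjusted p = 3.77e-07 for Stat3 and SE 0.0782 and edgeR adjusted p = 2.34e-05 for Socs3. The other genes that were higher were Socs2 (0.39, SE 0.0804), Pim1 (0.19, SE 0.0666) and Il6st (0.16, SE 0.0585). For Il6st and Pim1 both removals came with a fall, and the fall was the smaller after PD03 removal. The log2 fold changes of Pim1 were -0.11 on soft, which did not pass, and -0.21 on stiff after PD03 removal. After CHIRON removal they were -0.34 and -0.36. Jak1 was lower after PD03 removal (-0.23, SE 0.0831, edgeR adjusted p = 0.0335), although it passed in neither experiment by itself. Jak1 overlaps Raver2 on the opposite strand. The calls for Il6st, Pim1 and Jak1 depended on single libraries and on settings. Il6st was not called without the filter on low counts or with non-coding genes kept (edgeR adjusted p = 0.0795 and 0.0945), Pim1 with non-coding genes kept (0.0791), and Jak1 by DESeq2 (adjusted p = 0.0688). The Il6st call was lost without replicate 2 of any 0 h or 12 h group of either experiment or stiff 12 h replicate 1 of PD03 removal, with differences of 0.14 to 0.16 and edgeR adjusted p-values of 0.0508 to 0.0833. That for Pim1 was lost without replicate 2 of soft 0 h or soft 12 h or replicate 1 of stiff 0 h or stiff 12 h (PD03 removal), or replicate 1 of either 12 h group (CHIRON removal), with edgeR adjusted p-values of 0.0544 to 0.0983. That for Jak1 was lost without soft 0 h replicate 2, either soft 12 h library, either stiff 0 h library or stiff 12 h replicate 1 (PD03 removal), or replicate 1 of any 0 h or 12 h group (CHIRON removal), with edgeR adjusted p-values of 0.0507 to 0.147. Lifr (0.20, SE 0.0926, edgeR adjusted p = 0.0997) and Pim3 (-0.14, SE 0.0721, edgeR adjusted p = 0.139) did not pass. Lifr passed without soft 12 h replicate 1 (0.33, edgeR adjusted p = 0.00208) or stiff 0 h replicate 1 (0.27, 0.0215) of CHIRON removal, and without the filter on low counts (0.20, 0.0232). The median of the 9 differences was 0.19 at 2 h and 0.20 at 12 h, against 0.005 and 0.011 over all genes.

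**Figure D4:**
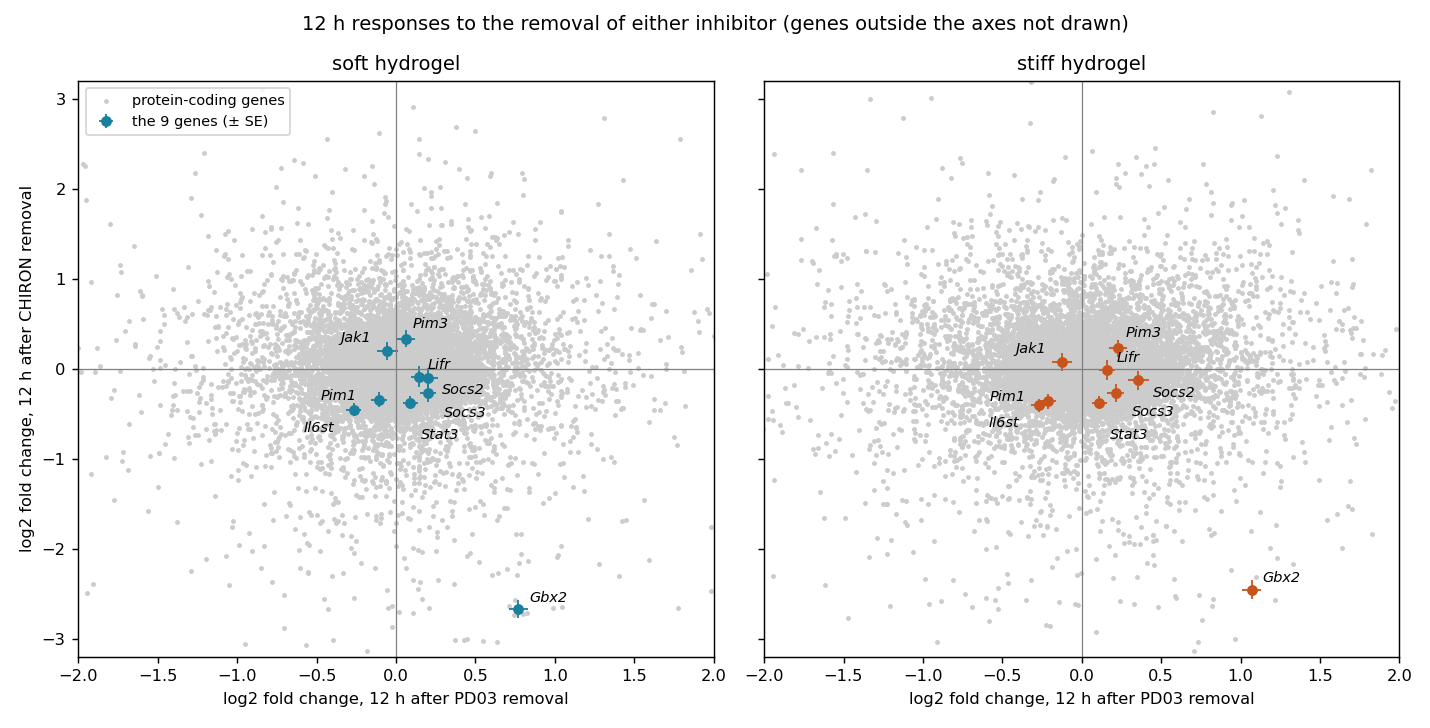
Log2 fold change at 12 h after PD03 removal (x axis) against that at 12 h after CHIRON removal (y axis) on soft and on stiff. Grey points are genes tested in both experiments, without names shared by several genes, and coloured points with SE bars are the 9 genes. Outside the axes and not drawn are 63 genes on soft and 110 on stiff. Gbx2 lies to the lower right of both panels, at 0.77 and -2.67 on soft and 1.07 and -2.45 on stiff, and the other 8 lie near the centre.

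Other genes of the pathway were read from lists of ligands and receptors, JAK and STAT genes, negative regulators and genes known as Stat3 targets. Of 11 ligands and receptors of the gp130 family, 6 passed the filter on low counts in the PD03 removal experiment and 10 in the CHIRON removal experiment. Lif itself was read at 7.1 to 9.93 CPM in group means of the former and at 3.87 to 4.98 CPM in the latter, and it passed in no comparison. Cntfr, the receptor for ciliary neurotrophic factor, was the ligand or receptor with the largest change. It rose from 1.03 to 8.24 CPM on soft (2.99, SE 0.255, edgeR adjusted p = 4.26e-10) and from 0.873 to 14.7 CPM on stiff (3.99, SE 0.24, edgeR adjusted p = 1.32e-13) by 12 h after PD03 removal. At that time Cntfr was lower on soft than on stiff (-0.84, SE 0.174, edgeR adjusted p = 0.0114). Il6ra, the receptor for interleukin 6, rose after PD03 removal by 0.34 on soft and 0.35 on stiff at 12 h and fell after CHIRON removal by 1.05 on soft and 1.03 on stiff. Osm, the ligand oncostatin M, fell in both experiments at 12 h, by 0.48 on soft and 0.65 on stiff after PD03 removal and by 2.03 on soft and 1.68 on stiff after CHIRON removal.

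Of 9 other JAK and STAT genes, all of which passed the filter, 2 were higher and 0 lower on soft and 5 higher and 0 lower on stiff at 12 h after PD03 removal, where 14.1% and 18.5% of all genes were higher. The 5 on stiff were Jak3, Stat2, Stat4, Stat6 and Tyk2 (Stat2, Stat4 and Tyk2 are named after their values were seen), of which Stat6 had the smallest adjusted p (0.40, SE 0.0742, edgeR adjusted p = 8.04e-05). At 12 h after CHIRON removal 1 was higher on soft, Stat2 (0.32, SE 0.0977, edgeR adjusted p = 0.0278), and 0 passed on stiff. Of all genes, 9.18% were higher on soft and 8.46% on stiff. Jak2 passed at no time on either substrate, while its 12 h responses to the removals differed by -0.36 (SE 0.129, edgeR adjusted p = 0.0307). Of 14 negative regulators, 4 were higher on soft and 5 on stiff at 12 h after CHIRON removal, and 0 were lower, where 9.18% and 8.46% of all genes were higher. At 12 h after PD03 removal 1 was higher and 3 lower on soft, beside 14.1% and 15.3% of all genes. On stiff 1 was higher and 1 lower, beside 18.5% and 19.9% of all genes. Those higher after CHIRON removal included Socs1, a suppressor close to Socs3, which rose from 1.47 to 3 CPM on soft (1.01, SE 0.3, edgeR adjusted p = 0.0263) and from 1.52 to 3.64 CPM on stiff (1.25, SE 0.302, edgeR adjusted p = 0.00734), and Cish, another suppressor of the same family (1.38, SE 0.23, and 1.67, SE 0.247).

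Of 14 other genes known as Stat3 targets, 4 rose on soft and 5 on stiff at 2 h after PD03 removal, and 0 fell, where 1.31% and 1.84% of all genes rose. At 12 h after PD03 removal 2 of the 14 were higher and 3 lower on soft, beside 14.1% and 15.3% of all genes. On stiff 5 of the 14 were higher and 2 lower, beside 18.5% and 19.9% of all genes. At 12 h after CHIRON removal 2 of the 14 were higher and 6 lower on soft, and 2 higher and 4 lower on stiff, where 9.18% of all genes were higher and 8.63% lower on soft, and 8.46% higher and 8.33% lower on stiff. Myc, the growth-promoting transcription factor, rose at 2 h after PD03 removal from 4.72 to 13.8 CPM on soft (1.54, SE 0.16, edgeR adjusted p = 1.47e-07) and from 5.92 to 19.3 CPM on stiff (1.70, SE 0.143, edgeR adjusted p = 1.5e-09). After CHIRON removal Myc fell by 12 h from 43.4 to 8.78 CPM on soft (-2.30, SE 0.133, edgeR adjusted p = 1.58e-09) and from 41.9 to 14.5 CPM on stiff (-1.53, SE 0.127, edgeR adjusted p = 1.67e-07). Junb, a subunit of AP-1, rose by 0.98 on soft and 1.40 on stiff at 2 h after PD03 removal. Klf4 and Tfcp2l1, naive pluripotency factors, were lower at 12 h in both experiments. Tfcp2l1 fell from 2540 to 1990 CPM on soft and from 2440 to 1710 CPM on stiff after PD03 removal, and from 1300 to 820 CPM and from 1250 to 800 CPM after CHIRON removal. Over the 3 times of PD03 removal Tfcp2l1 was higher on soft (0.12, SE 0.0229, edgeR adjusted p = 0.00315) and Myc lower (-0.47, SE 0.0857, edgeR adjusted p = 0.00205). Many of these genes are known as targets of other pathways too.

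**Figure D5:**
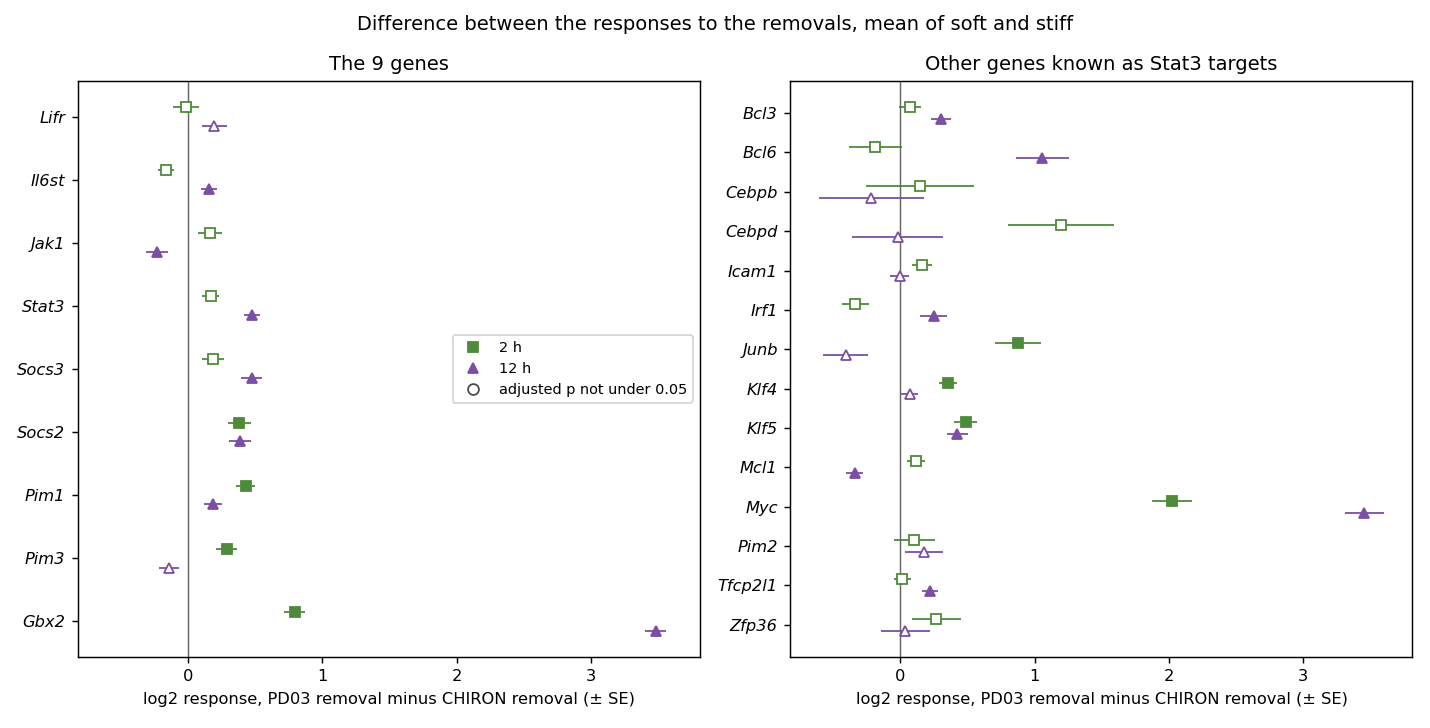
Difference (± SE) between the log2 response to PD03 removal and that to CHIRON removal at 2 h (squares) and 12 h (triangles), averaged over soft and stiff, for the 9 genes (left) and for 14 other genes known as Stat3 targets (right). Filled symbols passed adjusted p 0.05, and Gbx2 at 3.48 and Myc at 3.45 at 12 h lie furthest to the right. The experiments started from different levels at 0 h.

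Likeness between genes was described by Pearson's r of log2 CPM over the 23 libraries, each centred on the mean of its experiment. These libraries share groups and time points, so r mostly describes the same changes with time, and no test was made. Among 13171 genes, those most like Socs3 included Mkrn1 (r = 0.887), Dstn (0.846), Myc (0.831) and Gpc4 (0.828). Stat3 was most like B3gnt7 (r = 0.969), Nrp2 (0.96), Nt5e (0.954), Trh (0.946) and Rrn3 (0.943). Within the 9 genes the highest r was that of Stat3 with Gbx2 (0.887), followed by Stat3 with Socs3 (0.791) and Socs3 with Gbx2 (0.723). Jak1 had r = -0.415 with Stat3 and r = -0.59 with Gbx2, and Pim3 had r = -0.515 with Il6st.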

How the data were processed

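Gene-level read counts were deposited per library by the authors as raw counts and were used as such. Per the labels and the study's methods, reads were trimmed with Trim Galore, aligned to the mouse genome (GRCm38/mm10) with TopHat2 2.1.0 and counted over genes with featureCounts 1.5.0; whether strand was used is not given in the sources used here, so reads of a gene and of a gene overlapping it on the other strand cannot be told apart. Totals per library were 16222196 to 31111260 counts, which limits the precision. From the counts, protein-coding genes (GENCODE M21) were fitted with edgeR 4.0.16 (TMM scaling, filterByExpr with a minimum count of 10, quasi-likelihood F-test) in R 4.3.3, with all 6 groups of an experiment in 1 fit of 13405 genes (PD03 removal) or 14615 genes (CHIRON removal), and 14742 genes in the fit of both. P-values were adjusted by Benjamini-Hochberg over all genes of a comparison, with a threshold of 0.05, and SE is the log2 fold change divided by the square root of F. CPM was computed over protein-coding counts with TMM scaling. DESeq2 1.42.0 (also named in the submitters' processing notes), other scaling, filters and blocks, and leaving out each library were the alternatives.

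The PD03 removal table also holds 12 columns that belong to no sample used here and 23 empty lines, all left out. The genes named are the 9, 7 further genes set by name, and up to 6 others per comparison past the threshold with the smallest adjusted p, from lists of the pathway. Marker lists of mESCs, fibroblasts, primitive endoderm and trophoblast were read as a check of the cells. For Socs3 and Stat3, the 5 genes with the highest correlation were named. Of the genes this rule names, 2 are not reported here. The 9 genes, the lists and the tests were chosen with earlier results of these data known.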

Additional observations from a re-analysis of the deposited data

How the results depend on the processing

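No called value of the 9 genes changed sign under any alternative. Of 267 called values under another setting, 233 stayed past the threshold and 34 did not, and of 597 values with 1 library left out, 520 stayed past it and 77 did not. At 2 h after PD03 removal 6 calls became 3 when only the groups compared were fitted. The 1 call for soft against stiff over the 3 times (PD03 removal) became 0 when non-coding genes were kept. At 2 h after CHIRON removal 2 calls became 0 with the tube number given in the labels as a block, 0 with the library of 171333 counts included, and 1 when only the groups compared were fitted. The calls lost with the tube block were those of Gbx2 on soft (adjusted p = 0.0613) and on stiff (0.148). With that shallow library, calls at 12 h after CHIRON removal went from 9 to 2, and those between the removals from 4 to 1 at 2 h and from 7 to 3 at 12 h. The cause was not tested.

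With 1 library left out, calls ranged from 3 to 6 (PD03 removal, 2 h), 9 to 12 (PD03 removal, 12 h), 0 to 1 (PD03 removal, soft against stiff over the 3 times), 1 to 2 (CHIRON removal, 2 h), 7 to 10 (CHIRON removal, 12 h), and 3 to 4 and 4 to 7 between the removals at 2 h and 12 h. They stayed at 0 for soft against stiff at each time and for the response difference between substrates in both experiments, and for soft against stiff over the 3 times after CHIRON removal.

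Libraries share replicate numbers across groups, but deviations from the group means of same-numbered libraries had mean correlations of -0.00248 (PD03 removal, 30 pairs) and -0.0198 (CHIRON removal, 20 pairs), and of -0.0115 by tube number (12 pairs). The numbers were therefore not taken as pairs. These correlations run over all genes tested, so they cannot exclude a link that affects few genes. With the replicate block, calls were 6 at 2 h and 12 at 12 h after PD03 removal, 2 and 9 after CHIRON removal, and 3 and 7 between the removals, where Pim3 at 2 h was no longer called (adjusted p = 0.0594). The replicate block gave 0 calls for soft against stiff at each time and for the response differences, and 1 and 0 over the 3 times.

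How far depth limited the precision for the 9 genes was not tested. At 12 h after PD03 removal on soft, the SE was 0.0466 for Il6st and 0.0653 for Socs2, a gene with fewer counts. With 2 libraries a group, differences several times the standard errors given can still miss the threshold.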
